A study of Homo sapiens with 2 samples.

Results

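The mechanistic target of rapamycin (mTOR) is a protein kinase that works in 2 complexes, and the RNA of 10 genes encoding their subunits and best known substrates was followed here in a multiple myeloma (MM) cell line. The members were taken by name from the gene column of both deposited tables, and all 10 were found among the 57485 genes listed. They are MTOR and MLST8, shared by both complexes, RPTOR and AKT1S1 of mTOR complex 1 (mTORC1), RICTOR, MAPKAP1, PRR5 and PRR5L of mTOR complex 2 (mTORC2), and the substrates RPS6KB1 and EIF4EBP1. The cells were ARP1, a human MM line, carrying a lentiviral short hairpin RNA against SRD5A1, the type I steroid 5α-reductase, in a vector that expresses the hairpin only when doxycycline (Dox) is given. There was 1 library of untreated cells and 1 of cells given Dox, so no difference described here could be compared with a spread between replicates, and no test was made. The dose and duration of Dox for these libraries are not given in the sources used here, and a library of Dox-treated cells without the hairpin was not analysed here. The genotype label of the Dox library names SRD5A2 where the other labels name SRD5A1. RNA of the targeted gene went against the labels: SRD5A1 was listed at 13.04 FPKM for the cells labelled untreated and at 25.88 FPKM for those labelled as given Dox (log2 ratio 0.98). Every direction given for the members therefore rests on how the libraries were labelled, and without Dox and with Dox stand for these labels throughout.

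mTOR senses nutrients, growth factors and energy. In mTORC1, the scaffold RAPTOR (RPTOR) brings substrates to the kinase, and active mTORC1 promotes translation and ribosome production while it restrains autophagy. In mTORC2, RICTOR takes the place of RAPTOR, and the complex phosphorylates AKT, SGK and protein kinase C enzymes. mTOR activity is set mainly by protein binding and phosphorylation, which RNA levels do not measure. In the study of these cells, the question was whether lowering SRD5A1 acts on autophagy through the PI3K/Akt/mTOR pathway.

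The libraries held 45918570 expected counts without Dox and 48728927 with Dox, and 3 counts correspond to 0.065 and 0.062 CPM (counts scaled to the depth of the library). Levels are given as FPKM, that is, fragments scaled to the effective length of the transcript and to the depth of the library, which allows genes of different length to be compared. The log2 ratio is the log2 of FPKM + 0.1 with Dox over FPKM + 0.1 without Dox. Its 95% interval was computed from the counts (exact binomial, Clopper-Pearson), without the added 0.1, and covers counting error only. All 10 plasma cell markers examined, among them SDC1, TNFRSF17, IRF4 and XBP1, had at least 15.73 FPKM in each library, with a sum of 7881 FPKM without Dox and 5852 FPKM with Dox. In each library 1 marker made up most of the sum, at 5444.03 FPKM without Dox and 3515.08 with Dox. The lowest marker was at 15.73 without Dox and the lowest with Dox at 26.61, so the sums do not describe the markers in general. Of 16 markers of other cell types, 3 reached 1 FPKM without Dox and 4 with Dox, with sums of 11.71 and 8.30 FPKM, and CD3D and CD2 were listed at 0 in both. The 3 epithelial markers, EPCAM, KRT8 and KRT18, made up 8.71 and 4.04 FPKM of these sums. Of these, 2 reached 1 FPKM without Dox, up to 6.0 FPKM, and 3 with Dox. In bulk RNA, fewer cells with a transcript and less of it per cell cannot be told apart.

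Most members differed little between the libraries. A level of 1 FPKM or above in either library was reached by 9 members. Past 2-fold, 1 of these was higher with Dox, EIF4EBP1, and 1 was lower, PRR5L. The remaining member, PRR5, was under 1 FPKM in both libraries. Among all 14859 genes that passed the same filter, 17.0% were past 2-fold in the higher direction and 6.41% in the lower. Among the 11459 protein-coding genes these shares were 11.8% and 6.03%, and a single member already makes up 11.1% of 9, so the counts of members are near the background. The median log2 ratio of the 9 members was 0.07, beside 0.15 for all tested genes and 0.07 for the tested protein-coding genes. For 6 of the 9 members the log2 ratio lay within 0.3 of 0. When counts, not divided by length, were scaled by the TMM factors of edgeR, the median of all tested genes moved by -0.19 to -0.04, and the split of all genes past 2-fold went from 2521 higher and 953 lower to 1823 higher and 1355 lower. With that scaling no member was past 2-fold in the higher direction. The size factors of DESeq2 gave 1796 and 1388 genes.

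**Figure D1:**
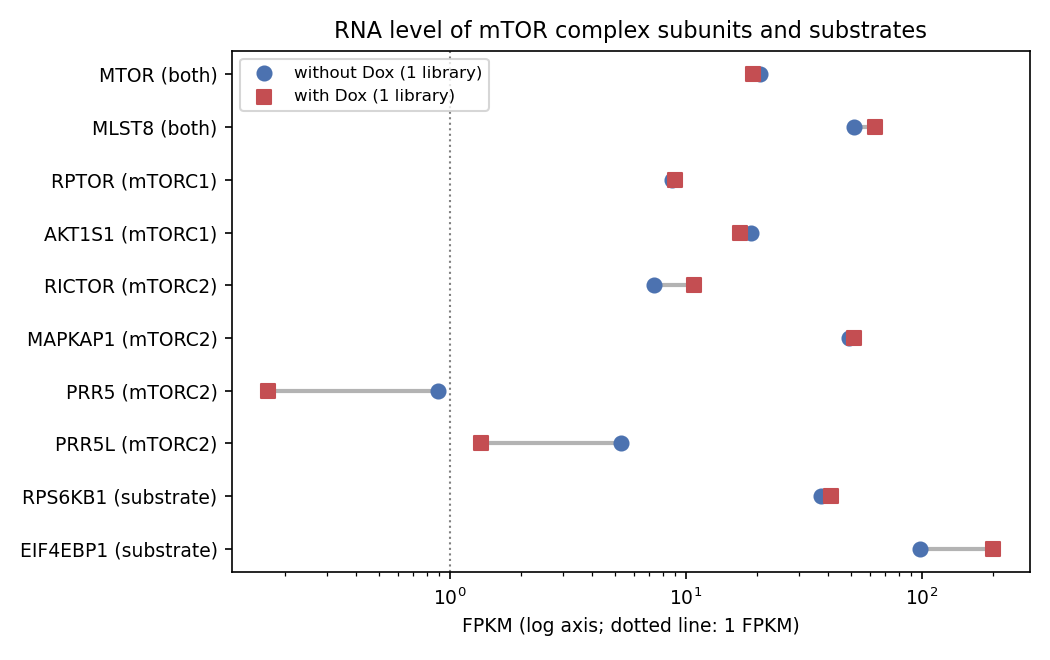
FPKM of each of the 10 members on a log axis, with 1 circle for the library labelled without Dox, 1 square for the library labelled with Dox and a grey line between them. The symbols nearly coincide for MTOR, RPTOR, AKT1S1, MAPKAP1 and RPS6KB1, lie far apart to the left for PRR5 and PRR5L, and apart to the right for EIF4EBP1, which went from 98.12 to 201.02 FPKM.

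The levels of the members spanned a wide range. EIF4EBP1 was the highest in both libraries, and MLST8, MAPKAP1, RPS6KB1, MTOR and AKT1S1 followed in that order in both. RPTOR and RICTOR exchanged the places 7 and 8 between the libraries, and PRR5L and PRR5 were the lowest in both. MLST8 and MAPKAP1 were close to each other without Dox, at 51.76 and 49.20 FPKM. Among the tested protein-coding genes, EIF4EBP1 stood at percentile 90.3 without Dox and 96.2 with Dox, MTOR at 58.7 and 54.8, and RICTOR at 32.2 and 38.4. The 10 genes lie on 9 chromosomes, RPTOR and RPS6KB1 sharing chromosome 17.

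The genes shared by both complexes were near the middle of all genes. MTOR encodes the kinase itself (ENSG00000198793.12, GRCh38 chromosome 1 from 11106535 to 11262507, reverse strand). It was listed with 6591 counts and 20.55 FPKM without Dox and with 6982 counts and 19.27 FPKM with Dox, a log2 ratio of -0.09 (counting interval -0.14 to -0.04). In CPM, MTOR was at 143.5 without Dox and 143.3 with Dox, so the small difference in FPKM came with a longer mean transcript length and not with fewer counts. MLST8 encodes a WD-repeat protein that binds the kinase domain of mTOR (chromosome 16 from 2204248 to 2209416). It went from 51.76 to 62.97 FPKM, with 2508 and 3145 counts (log2 ratio 0.28, interval 0.21 to 0.36). MLST8 was thus slightly above and MTOR slightly below the median of all tested genes, by 0.13 and -0.25 on the log2 scale.

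Neither gene particular to mTORC1 was far from 0. RPTOR (chromosome 17 from 80544819 to 80966371) had 8.75 FPKM without Dox and 8.99 FPKM with Dox, from 1899 and 2174 counts. Its log2 ratio of 0.04 had a counting interval that includes 0, from -0.05 to 0.13, and by FPKM RPTOR was the only such member of the 9. This depends on dividing by length, since in CPM the interval of RPTOR lay above 0, from 0.02 to 0.199. In CPM the intervals of MTOR (-0.051 to 0.046), AKT1S1 (-0.156 to 0.025) and MAPKAP1 (-0.074 to 0.046) included 0. AKT1S1 encodes PRAS40, a protein that restrains mTORC1 and is itself phosphorylated by AKT and by mTORC1. AKT1S1 (chromosome 19 from 49869033 to 49878459) went from 18.93 to 16.91 FPKM, with 1987 and 2015 counts and a log2 ratio of -0.16 (interval -0.25 to -0.07). Both values lay below the median of all tested genes, with distances of -0.11 for RPTOR and -0.31 for AKT1S1.

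The genes of mTORC2 differed more widely from each other. RICTOR (chromosome 5 from 38937919 to 39074408) had 7.31 FPKM without Dox and 10.87 with Dox, from 2625 and 4152 counts. Its log2 ratio was 0.57 (interval 0.50 to 0.64), which is under 2-fold and stands at percentile 76.0 of the protein-coding genes. MAPKAP1 encodes SIN1, which carries substrates to mTORC2 (chromosome 9 from 125437393 to 125707234). MAPKAP1 had 49.20 and 51.61 FPKM (log2 ratio 0.07), and 94.7 and 93.8 CPM, so its direction depends on whether the counts are divided by length.

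PRR5 and PRR5L encode Protor-1 and Protor-2, related proteins that bind RICTOR. Both were lower with Dox. PRR5L (ENSG00000135362.13, chromosome 11 from 36296288 to 36465204) went from 5.33 to 1.35 FPKM, with 267 counts without Dox and 87 with Dox. Its log2 ratio of -1.90 (interval -2.35 to -1.63) stood at percentile 0.8 of the protein-coding genes. In CPM, PRR5L went from 5.82 to 1.79, a log2 ratio of -1.70. PRR5 (chromosome 22 from 44668547 to 44737681) went from 0.89 to 0.17 FPKM, with 55 and 12 counts. This rests on few counts, and the interval of its log2 ratio was correspondingly wide, from -3.41 to -1.46. Together the pair had 6.22 FPKM without Dox and 1.52 FPKM with Dox. PRR5L was the main one in both libraries, with 82.9% of 322 counts of the pair without Dox (95% interval 78.4% to 86.9%) and 87.9% of 99 counts with Dox (79.8% to 93.6%), and these intervals overlap. Relative to RICTOR, the protein they bind, the summed FPKM of the pair was 0.851 of RICTOR without Dox and 0.140 with Dox. The size of these fractions depends on dividing by length. In counts, the pair had 322 beside 2625 for RICTOR without Dox, and 99 beside 4152 with Dox.

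**Figure D2:**
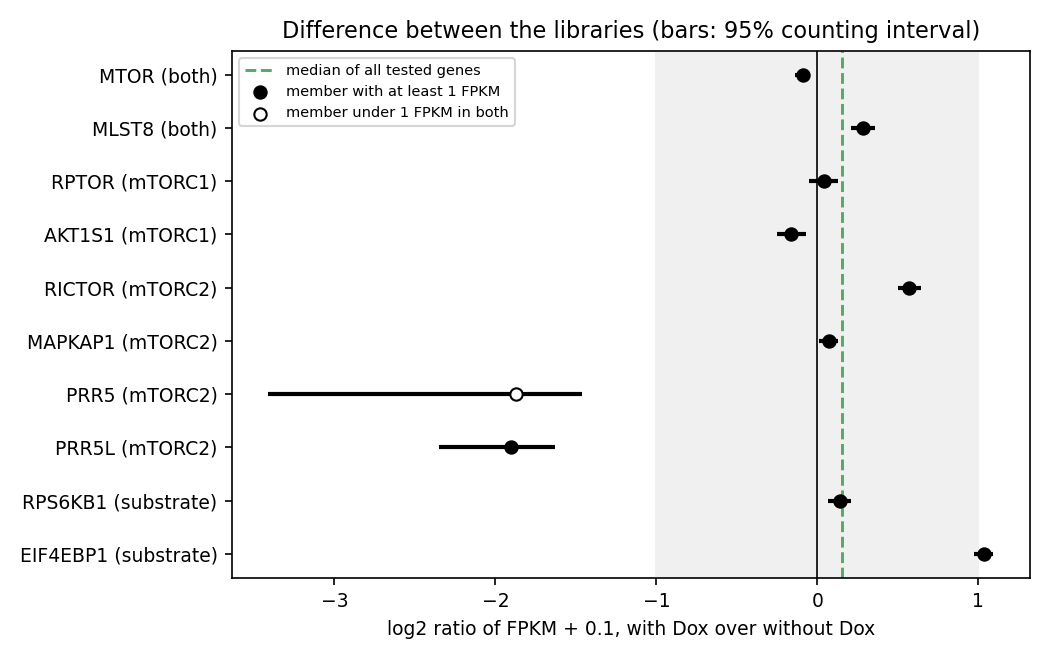
Log2 ratio of FPKM + 0.1 of each member, with Dox over without Dox, with bars for the 95% counting interval, grey shading for less than 2-fold and a dashed line at the median of all tested genes. PRR5L and PRR5 (open circle, under 1 FPKM in both libraries) lie left of the shading, EIF4EBP1 lies just past its right edge at 1.03, and the other 7 members lie inside it.

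Promoter windows of 300 bases, from 250 before to 50 after a RefSeq start, were held for 7 of the 10 members, in 11 windows on GRCh38.p14. MLST8, AKT1S1 and EIF4EBP1 were not searched. The windows were searched on both strands for TGATGNAA, the core of the composite site of ATF4 with C/EBP proteins, for the cAMP response element TGACGTCA and for the E-box CACGTG, which is read by MYC and TFEB. TGATGNAA was found in 1 of the 11 windows, beside 3.62% of all 35116 windows, CACGTG in 1 beside 7.26%, and TGACGTCA in 0 beside 1.85%. The window with TGATGNAA is 1 of 3 of PRR5L, and CACGTG is in 1 of 3 windows of PRR5. Both windows lie inside their genes, which begin at 36296288 and 44668547, and whether these starts are used in these cells was not tested. The PRR5 window, chr22:44701954-44702253, also holds the annotated start, at 44702233, of the overlapping gene PRR5-ARHGAP8, which was listed at 0 counts in both libraries. For the PRR5L window, the 250 bases before its RefSeq start, on the forward strand at chr11:36375735-36375984, are shown with the match in capitals. It is read on the reverse strand and begins 110 bases before the start. A match is a description of letters and was not tested for binding.
PRR5L: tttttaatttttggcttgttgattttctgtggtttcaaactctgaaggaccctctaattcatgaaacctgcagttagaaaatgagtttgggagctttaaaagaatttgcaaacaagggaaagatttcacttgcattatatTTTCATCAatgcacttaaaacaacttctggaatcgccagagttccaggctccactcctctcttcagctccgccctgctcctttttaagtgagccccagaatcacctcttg

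The substrates of mTORC1 differed from each other. RPS6KB1 encodes S6K1, the kinase known as p70S6K that phosphorylates ribosomal protein S6 (chromosome 17 from 59893046 to 59950564). It had 37.49 FPKM and 2836 counts without Dox and 41.27 FPKM and 3655 counts with Dox. Its log2 ratio of 0.14 (interval 0.07 to 0.21) was close to the median of all tested genes. EIF4EBP1 encodes 4E-BP1, which holds the cap-binding protein eIF4E until mTORC1 phosphorylates it, and which is a known target gene of the stress factor ATF4 (ENSG00000187840.4, chromosome 8 from 38030341 to 38060365). EIF4EBP1 went from 98.12 to 201.02 FPKM, with 3445 and 7265 counts. Its log2 ratio was 1.03 (interval 0.98 to 1.09), so 2-fold lies within counting error. In CPM, EIF4EBP1 went from 75.02 to 149.1, a log2 ratio of 0.99, so it was under 2-fold from the counts with no scaling factor and no division by length. From the same counts the value was 0.78 with the TMM factors and 0.77 with the size factors of DESeq2, and TPM gave 1.13. EIF4EBP1 was higher with Dox under each of the 7 alternatives, though a change of pseudocount or filter cannot alter its direction. It was past 2-fold in the alternatives that use FPKM or TPM.

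The mean transcript length listed for a gene holds a trace of which transcripts its reads were assigned to. EIF4EBP1 has only 2 transcripts in the annotation, 1 of 1020 bases, which encodes the protein, and 1 of 695 bases, a processed transcript with no annotated protein. The mean length of 1007.57 bases without Dox and 987.37 bases with Dox places 3.82% and 10.04% of the EIF4EBP1 RNA in the shorter transcript. The protein-coding transcript alone went from 94.37 to 180.84 FPKM, a log2 ratio of 0.94, which is under 2-fold. The shorter transcript went from 3.75 to 20.18 FPKM (log2 ratio 2.40), and these shares are estimates of the authors' software for transcripts that share most of their sequence. For MTOR, the 8677-base transcript took between 68.89% and 82.03% of the RNA without Dox and between 78.62% and 87.65% with Dox, ranges that overlap. The mean length was longer with Dox for 7 of the 10 members, most for PRR5L with 17.8% and RPS6KB1 with 9.15%, and shorter for MLST8, MAPKAP1 and EIF4EBP1. Among 12168 tested genes with more than 1 transcript, 54.8% were longer with Dox and the median change was 0.43%. Since FPKM divides by this length, a longer mean lowers FPKM at the same count, and RPS6KB1 had a log2 ratio of 0.28 by CPM beside 0.14 by FPKM.

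Ratios between members within 1 library do not depend on the scaling between libraries. RICTOR had 0.835 times the FPKM of RPTOR without Dox and 1.21 times with Dox, log2 ratios of -0.26 (interval -0.34 to -0.17) and 0.27 (0.20 to 0.35). RICTOR thus lay below RPTOR without Dox and above it with Dox. This order depends on dividing by length, since from the counts alone RICTOR, the longer transcript, was above RPTOR in both libraries, with log2 ratios of 0.47 and 0.93, and the ratio was higher with Dox on both scales. MTOR was lower than MLST8 in both libraries, at 0.397 and 0.306 of its FPKM. In counts, MTOR was above MLST8, with 6591 and 6982 beside 2508 and 3145. AKT1S1 had 2.16 and 1.88 times the FPKM of RPTOR, and the counting intervals of the log2 ratio, 1.02 to 1.21 and 0.823 to 0.999, did not overlap. In counts, AKT1S1 was above RPTOR without Dox (1987 beside 1899) and below it with Dox (2015 beside 2174). EIF4EBP1 had 2.62 times the FPKM of RPS6KB1 without Dox and 4.87 times with Dox. Against its paralog EIF4EBP2, which had 26.95 and 24.91 FPKM, EIF4EBP1 was 3.64 and 8.07 times as high. In counts, EIF4EBP1 was below EIF4EBP2 in both libraries, with 3445 and 7265 beside 8681 and 8511. EIF4E, the cap-binding protein that 4E-BP1 holds, went the other way from EIF4EBP1, from 146.86 to 108.63 FPKM. The summed FPKM of EIF4EBP1, EIF4EBP2 and EIF4EBP3 was 0.853 of EIF4E without Dox and 2.08 of it with Dox, and EIF4EBP1 made up 78.3% and 89.0% of that sum. These fractions and shares depend on dividing by length as well. RPS6KB1 had 0.645 and 0.666 times the FPKM of its paralog RPS6KB2, with overlapping intervals. This also depends on dividing by length, since the log2 ratio of CPM with Dox over without Dox was 0.28 (interval 0.21 to 0.35) for RPS6KB1 and 0.10 (0.03 to 0.16) for RPS6KB2.

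**Figure D3:**
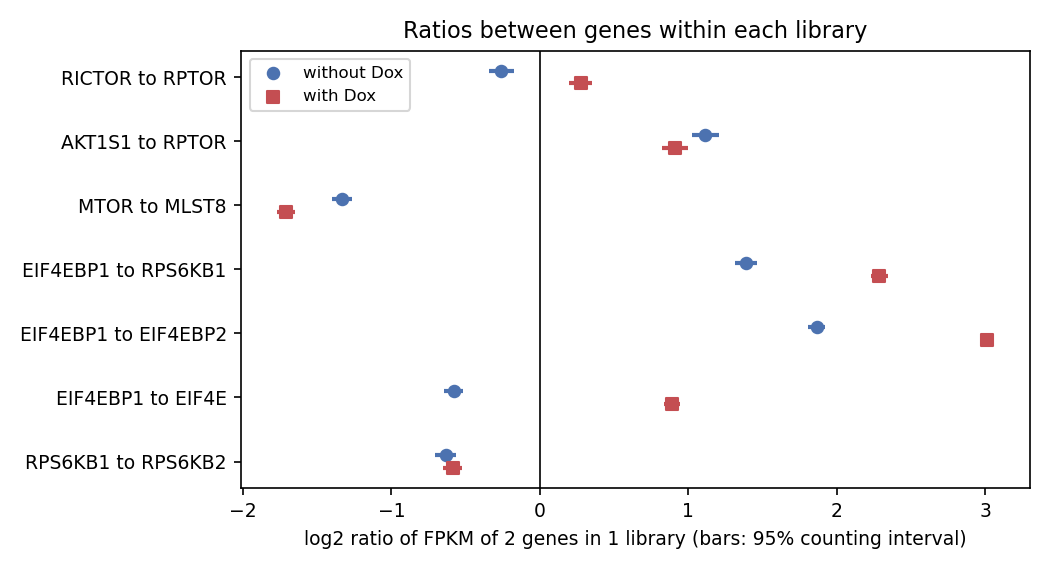
Log2 ratio of the FPKM of 2 genes within 1 library, with circles for the library labelled without Dox, squares for the library labelled with Dox and bars for the 95% counting interval. RICTOR to RPTOR and EIF4EBP1 to EIF4E lie on opposite sides of 0 in the 2 libraries, and the bars of RPS6KB1 to RPS6KB2 overlap.

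Some members share exon sequence with other genes, and whether the counting used the strand is not given in the sources used here. Exons of 7 members overlap those of 10 other genes, of which 4 had at least 1 FPKM in a library. TBC1D17 shares 392 exon bases with AKT1S1 on the opposite strand and went from 15.61 to 34.61 FPKM, a log2 ratio of 1.14 beside -0.16 for AKT1S1. Others were BRICD5 at MLST8, with 7.42 and 7.70 FPKM, and an antisense RNA at RPTOR, with 1.20 and 1.61 FPKM. The readthrough gene PRR5-ARHGAP8 shares 933 exon bases with PRR5 and was listed at 0 counts in both libraries, as was ARHGAP8, and how reads were divided between PRR5 and the readthrough was not tested.

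Around the complexes, 74 other genes of the pathway were grouped in 8 lists by their place in it. Of the 69 with at least 1 FPKM, 8 were higher past 2-fold (11.6%) and 2 were lower (2.90%). Their median log2 ratio was 0.14. Among other direct substrates of mTORC1, 1 of 9 was higher, TFEB, a transcription factor of lysosomal genes, from 7.97 to 32.79 FPKM. ULK1, the kinase that starts autophagy, had 4.45 and 9.0 FPKM, and only with the added 0.1 was it at the 2-fold limit and not past it. In CPM, ULK1 was past 2-fold, from 16.97 to 36.45 (log2 ratio 1.10). Of the 8 kinases phosphorylated by mTORC2 that passed the filter, 0 were past 2-fold in either direction, and the largest difference was that of PRKCD, from 14.06 to 9.98 FPKM. Among the 6 genes of the inhibitor DEPTOR and the TSC-RHEB switch, 3 were past 2-fold higher and 0 lower, beside 17.0% and 6.41% of all tested genes. DEPTOR, which binds and inhibits mTOR in both complexes, went from 15.29 to 52.59 FPKM (log2 ratio 1.78), RHEBL1 from 2.84 to 9.25 and TBC1D7 from 15.98 to 40.18. The other 3 genes of the list, TSC1, RHEB and TSC2, were under 2-fold, with log2 ratios of -0.06, 0.14 and 0.51. This list had a median of 0.92, beside 0.07 for the members, and this difference was not tested. Both were chosen with earlier results of these data known, so the comparison of their medians is a description only.

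The assembly factors that fold and join mTOR, the TTT and R2TP complexes, had a median of -0.34 over 7 genes. TELO2 was the 1 gene of them past 2-fold, from 25.92 to 12.56 FPKM (log2 ratio -1.04). RUVBL1 and RUVBL2, the ATPases of R2TP, were under 2-fold, with log2 ratios of -0.87 and -0.84. Among 12 genes of the Rag GTPases, the Ragulator and FLCN, which place mTORC1 on the lysosome, 1 was higher, RRAGC, from 8.45 to 17.32 FPKM. None of the 12 genes of GATOR1, GATOR2 and KICSTOR, which pass the amino acid signal to the Rag GTPases, was past 2-fold by FPKM. The largest difference there was that of KPTN, from 9.50 to 5.47 FPKM. In CPM, without division by length, KPTN was past 2-fold, from 9.91 to 4.35 (log2 ratio -1.19). Among 6 amino acid sensors, SESN2, a leucine sensor induced by stress, went from 6.87 to 172.87 FPKM, BMT2 from 1.64 to 4.07 and CASTOR2 from 4.73 to 2.26. Among 9 effectors below S6K1 and 4E-BP1, PDCD4, an inhibitor of the helicase eIF4A, went from 33.42 to 225.29 FPKM and was the 1 gene past 2-fold. For comparison, 17.0% of all tested genes were past 2-fold higher and 6.41% lower. The shares were 14.3% lower for the assembly factors, 8.33% higher for the Rag GTPase list and 11.1% higher for the effectors. For the sensors they were 33.3% higher and 16.7% lower. In lists this small, 1 gene moves the share widely, and no list was tested.

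**Figure D4:**
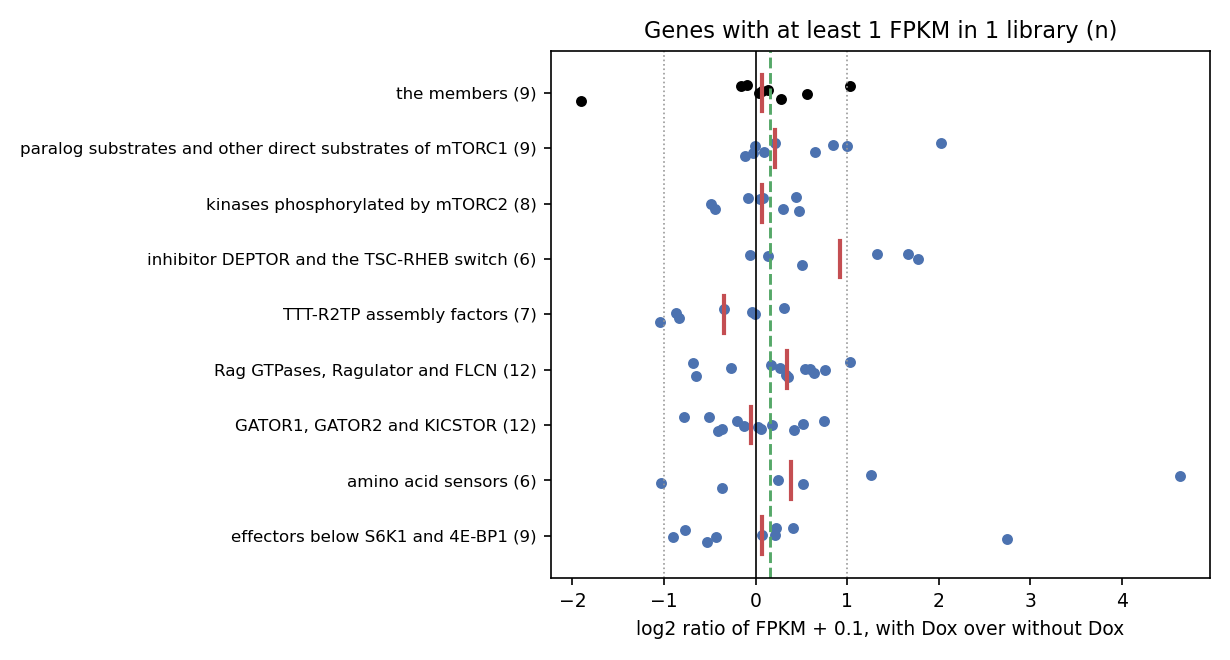
Log2 ratio of each tested gene, with Dox over without Dox, for the 9 tested members (black) and the 8 lists of other genes of the pathway (blue), with a red bar at each median, a dashed line at the median of all tested genes and dotted lines at 2-fold. The members have a median of 0.07, and SESN2 lies farthest right at 4.63.

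For 3 members the sign of the log2 ratio was not the same in every setting, and the settings with TMM or size factors also leave out the division by length. PRR5L, PRR5 and AKT1S1 were lower, and RICTOR, MLST8, RPS6KB1 and EIF4EBP1 higher, with Dox under all 7 alternatives tried. A change of pseudocount or filter cannot alter a sign, so only TPM, TMM and the size factors could have done so. RPTOR and MAPKAP1 were below 0 with TMM and with the size factors, at -0.10 and -0.22 with TMM. In CPM with no scaling factor, RPTOR was at 0.11 and MAPKAP1 at -0.01. MTOR went to 0.00 with TPM and stayed below 0 in the other 6. RICTOR ranged from 0.36 to 0.66, always above the median of all genes in the same setting.

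**Figure D5:**
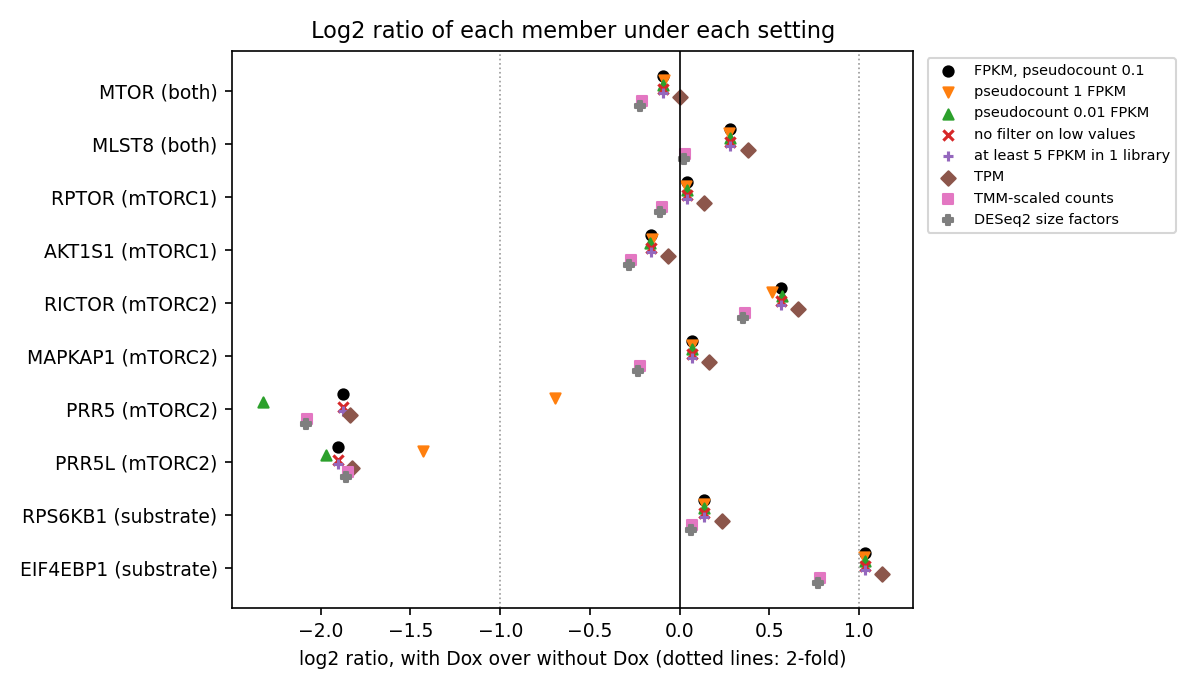
Log2 ratio of each member, with Dox over without Dox, under the main setting (black circle) and the 7 alternatives, with dotted lines at 2-fold. The settings based on scaled counts lie to the left for most members and TPM lies to the right, and PRR5 and PRR5L move most with the pseudocount, to -0.69 and -1.43 with 1 FPKM.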

How the data were processed

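RNA of 2 libraries, 1 per condition, was analysed. The authors deposited expected counts per gene, which apportion reads among transcripts and are not all whole, TPM values, FPKM values and, per the file headers, mean and effective transcript lengths in bases. The column layout is that of RSEM, while the submitters' processing notes name hg19, HISAT2 2.1.0, StringTie 1.3.4d and Bowtie 0.12.2 with no role. The tables hold no coordinates. Of 204675 transcripts listed, 202888 are in GENCODE release 29 with the same version, so coordinates are those of GRCh38 from that annotation. In 4 list genes the tables use an older symbol, matched by transcript.

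Log2 ratios used a pseudocount of 0.1 FPKM and kept a gene that reached 1 FPKM in either library. Counts of genes are of those past 2-fold. No p-value was computed, since 1 library per condition gives no dispersion for edgeR, which the study used. TMM factors (edgeR 4.0.16) and size factors (DESeq2 1.42.0) in R 4.3.3 were computed on rounded counts of 19934 genes with at least 10 counts. Python 3.11.15, pandas 2.3.3, numpy 2.4.6, scipy 1.17.1 and matplotlib 3.10.9 were used. Shares of transcripts come from mean lengths, and for 34241 of 34241 genes with 1 transcript the listed length was the annotated one within 0.01 bases. The log2 ratio and its counting interval were tested on simulated counts with the same transcript lengths in both libraries. The other steps, among them the shares of transcripts, were not tested in this way. All members are named. Of each list, up to 4 genes past 2-fold or else the gene with the largest difference are named, with the targeted gene and genes that overlap a member, and others were chosen after their values were seen. The members and lists were chosen with earlier results of these data known. Authors' annotation columns were not used. Values of some overlapping and marker genes are not reported here.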

Additional observations from a re-analysis of the deposited data

How the results depend on the processing

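The 7 alternatives were a pseudocount of 1 or 0.01 FPKM, no filter on low values, a filter of 5 FPKM, TPM, TMM factors and DESeq2 size factors. The members past 2-fold higher went from 1 to 0 with TMM and with the size factors, both of which also leave out the division by length. In CPM with no factor, chosen after seeing the data, there were likewise 0, with EIF4EBP1 at 0.99. Those lower went from 1 to 2 with no filter, which adds PRR5. The members' median of 0.07 became -0.10 with TMM and -0.11 with the size factors. Over all genes, 1606 were past 2-fold higher with a pseudocount of 1 FPKM, 4735 higher and 1897 lower with no filter, and 1256 higher and 603 lower at 5 FPKM, beside 2521 and 953. Without division by length, the log2 ratio of RICTOR to RPTOR was 0.47 without Dox and 0.93 with Dox, and that of EIF4EBP1 to RPS6KB1 was 0.28 and 0.99. These move because the genes differ in length. The protein-coding transcript of EIF4EBP1 alone, chosen after seeing the data, gave 0.94. Of the members' own log2 ratios under the 7 alternatives, 45 lay within the counting interval of the reported value and 25 outside it. The 45 include every value with no filter and with the filter of 5 FPKM, since a filter cannot alter a member's log2 ratio. With TPM, 8 members lay outside and 2 within, with TMM 7 and 3, and with the size factors 8 and 2. A pseudocount of 1 FPKM put 2 outside. Most members thus left the interval under TPM, TMM and the size factors. Depth limits PRR5, with 55 and 12 counts. No paired analysis was possible because each condition has 1 library. Leaving out a library was not possible either.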
